A study of Homo sapiens with 9 samples.

Results

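Doxorubicin is an anthracycline that traps topoisomerase II on DNA and breaks it, and it was used to drive WI-38 cells into premature senescence. The genes described here encode histones, histone variants and the chaperones that carry histones. They were taken by gene symbol from the genes listed for doxorubicin against control, and 39 of the 6499 are reported. They comprised 22 replication-dependent histone genes, 4 histone variant genes, 12 histone chaperone genes and H3-2, which the annotation gives as a processed transcript and which was placed in no class. The replication-dependent genes encoded linker histone H1 (2 genes) and the core histones H2A (7), H2B (8, of which H2BC19P is a pseudogene), H3 (2) and H4 (3). Of these 22 genes, 15 lie in the histone clusters of chromosome 6 and 7 on chromosome 1. Other genes of these families, among them H3-3A, H3-3B, ASF1A, DAXX, SLBP and NPAT, were not analysed here.

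WI-38 cells are fibroblasts of human lung, an established diploid line that divides a limited number of times, and all were at population doubling 30. The control group (3 libraries) received DMSO, the solvent, followed by DMSO in the medium for 48 h. The doxorubicin group (3 libraries) received doxorubicin at 1 μM over 12 h. Like the controls, it was next given DMSO in the medium for 48 h. Libraries of cells given oridonin after doxorubicin were not analysed here. The labels do not say whether the libraries came from separate cultures, so p-values measure the spread between these libraries only, which may be technical.

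A nucleosome wraps DNA around H2A, H2B, H3 and H4, and H1 binds the linker DNA. Replication-dependent histone genes lie in clusters, have no introns in their classical transcripts and are expressed mainly in S phase, when new DNA has to be packed. Their mRNAs classically end in a stem-loop in place of a poly(A) tail, and SLBP, the stem-loop binding protein, handles this end. Some genes of these clusters are also known to give polyadenylated mRNA in cells that no longer divide. Variants such as H2A.Z and H2A.X are made throughout the cell cycle from genes outside the clusters, and chaperones bring histones to DNA during replication, at centromeres or during transcription.

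The stem-loop is shown because it is the classical end of replication-dependent histone mRNAs, although the classes here were set by gene symbol. Below are 30-base windows of annotated transcripts (GENCODE release 29, GRCh38), written 5′ to 3′ as DNA letters, with the 16 bases of the stem-loop in capitals.
H2AC8, chr6:26217410-26217439 (+): aaccaaaGGCTCTTTTCAGAGCCacccacc
H2AC18, chr1:149842216-149842245 (-): ctcaaaaGGCTCTTTTCAGAGCCacccacg
H2BC5, chr6:26158580-26158609 (+): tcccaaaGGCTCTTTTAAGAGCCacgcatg
H4C14, chr1:149833025-149833054 (+): tcccaaaGGCCCTTTTTAGGGCCgaccact
H2BC9, chr6:26252048-26252077 (+): acccaaaGGCTCTTTTCAGAGCCacttaat
H2AX, chr11:119094891-119094920 (-): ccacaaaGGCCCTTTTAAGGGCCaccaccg
The window of H2AC19 at chr1:149851567-149851596 (+) has the same letters as that of H2AC18, and the window of H4C15 at chr1:149860762-149860791 (-) the same as that of H4C14. The stem-loop was searched on the transcript strand as GG, 2 bases of any kind, CTTT, 2 of any kind, AG, 2 of any kind and CC. It occurred in a coding transcript of 15 of the 21 protein-coding replication-dependent genes. Counted by transcript and not by gene, it occurred in 0.262% of all 83129 protein-coding transcripts. For 4 of the other replication-dependent genes (H1-2, H1-5, H2AC17 and H2BC12) the annotation holds the coding part alone, so the end of the mRNA could not be searched. The remaining 2 genes, H2BC11 and H3C6, had no match in their annotated transcripts. Among the 4 variants, H2AX had a match.

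Many of these annotated transcripts ran on past the stem-loop. In 11 of the 15 genes an annotated transcript went more than 100 bases further. Taking the longest run past the stem-loop of each gene, these went from 35 bases in H2AC18 and H2AC19 to 1761 bases in H2AC11. In 10 of the 15 the poly(A) signal AATAAA stood past the stem-loop in the last 50 bases of a coding transcript. These include H2AC18, H2AC19 and H2BC5, whose longest runs past the stem-loop were only 35, 35 and 39 bases. Whether the libraries were made from RNA with poly(A) tails is not given in the sources used here, and the share of reads from either kind of mRNA end was not tested.

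The values are taken as TPM, a transcript level scaled for gene length and library. Comparisons between genes therefore rest on the transcript lengths used for scaling, which were not examined here. Annotated transcripts differ in length, such as 381 bases for H2BC12, where only the coding part is annotated, and 2250 bases for H2AC11. TPM keeps no read depth, so depth is unknown and precision rests on the 3 libraries per group. The listed genes held 54.3 to 60.0% of a library's total TPM. Across the genes tested libraries of the same group correlated at 0.992 to 0.995 (Pearson's r on the log2 scale) and those of different groups at 0.935 to 0.958. The listed genes were taken as those that passed the study's own thresholds on these 6 libraries, so no test here is independent of that choice. On the scale used here not all reach the study's 1.2 fold, as H2BC21 with a ratio of means of 1.17. The limma fit used log2(TPM + 1), which understates the change of low genes, and took in the 5721 listed genes that averaged 1 TPM or more. A gene was called when its Benjamini-Hochberg adjusted p was under 0.05 and its fold change over 1.2. On this basis 71.2% of the tested genes were called, 22.7% higher and 48.5% lower after doxorubicin, and the median log2 fold change of all tested genes was -0.28. This balance depended on scaling. Of the called genes 31.9% were higher on the deposited scale, 53.5% after quantile normalization and 59.9% after the libraries were centred on their medians, where the median of all genes was -0.01 and -0.02.

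Of the 39 genes, 37 passed the filter on low values. H1-5 and H2BC9 did not. For 6 of the 37 (H2AC11, H2AC17, H2BC8, H2BC19P, H3C6 and H4C15) the control mean was under 1 TPM, so that they passed through their doxorubicin values, and for ASF1B and HJURP the doxorubicin mean was under 1 TPM.

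Most of the listed replication-dependent histone genes were higher after doxorubicin. Among the 20 tested, 17 were called higher, 0 were called lower (0 also at an unadjusted p under 0.05) and 3 were not called (limma), while 22.7% of all tested genes were called higher. Their log2 fold changes ran from 0.22 to 2.64 with a median of 1.05, which is 1.34 above the median of all genes. With each library left out in turn, 14 to 17 of the 20 were called higher. Without the filter, so that all 22 entered the fit, 17 were called higher and 2 lower. The 2 called lower were H1-5 and H2BC9, which the filter had removed, so the 0 called lower holds past the filter only. Among the 17 called higher, H2AC11, H2AC17, H2BC8 and H4C15 had passed the filter through their doxorubicin values, with control means under 1 TPM. The summed level of the 22 genes was 510, 524 and 523 TPM in control cells and 1476, 1472 and 1319 TPM after doxorubicin, a ratio of means of 2.74. These are bulk RNA values, in which a change in the number of cells that express a gene and a change in RNA per cell cannot be told apart.

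**Figure D1:**
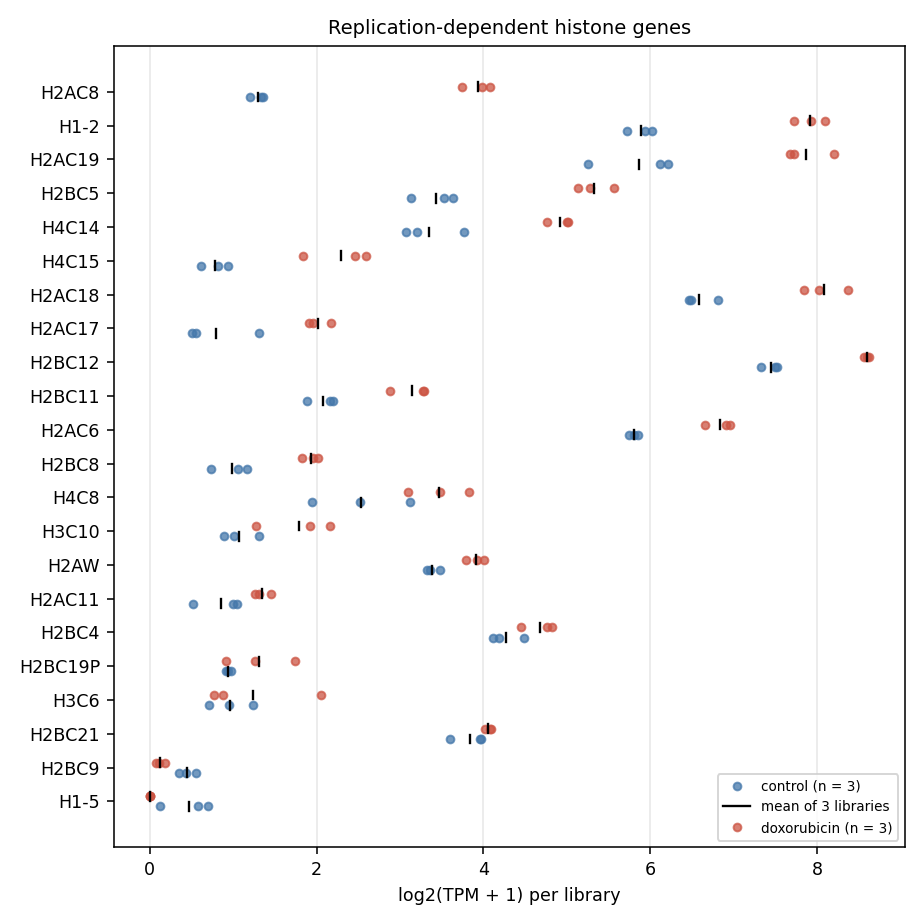
Levels of the 22 replication-dependent histone genes as log2(TPM + 1), with 1 point per library (3 control, 3 doxorubicin) and a black bar at each group's mean, ordered by fitted log2 fold change with the 2 untested genes at the bottom. In 15 genes every doxorubicin library lay above every control library, in H1-5 and H2BC9 every one lay below, and in 5 genes the groups overlapped. Of all tested genes, 32.3% lay wholly above in this way and 48.4% wholly below.

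The linker histone gene H1-2 (ENSG00000187837, chr6:26055787-26056428), whose protein compacts chromatin between nucleosomes, stood at 63.7, 51.5 and 60.2 TPM in control libraries and at 242, 272 and 211 TPM after doxorubicin. The lowest doxorubicin library was far above the highest control library, and the log2 fold change was 2.02 ± 0.10 (SE) with an adjusted p of 1.65e-07 in limma. The other listed replication-dependent H1 gene, H1-5 (ENSG00000184357), stood at 0.50, 0.09 and 0.62 TPM in control libraries and was listed at 0 in all 3 doxorubicin libraries, so that no fold is given. The mean control level was 58.5 TPM for H1-2 and 0.403 TPM for H1-5. Other replication-dependent H1 genes were not analysed here.

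Among the H2A genes, which encode the core histone that pairs with H2B, H2AC8 (ENSG00000277075, chr6:26216975-26217483) had the largest fitted change of the 37 tested genes in the upward direction. Its level was 1.30, 1.53 and 1.57 TPM in control libraries and 15.96, 14.8 and 12.4 TPM after doxorubicin, a ratio of means of 9.82 and a log2 fold change of 2.64 ± 0.13 (SE) and an adjusted p of 1.03e-07 in limma. H2AC8 nevertheless remained a minor gene among the listed H2A genes. The most abundant listed replication-dependent H2A genes were H2AC18, H2AC19 and H2AC6. H2AC6 (ENSG00000180573, chr6:26124145-26139116) stood at 54.8, 56.9 and 52.6 TPM in control libraries and at 123, 100 and 119 TPM after doxorubicin, without overlap, a log2 fold change of 1.04 ± 0.08 (SE) and an adjusted p of 4.6e-06 in limma. The lower H2A genes H2AC17, H2AW and H2AC11 had log2 fold changes of 1.23, 0.53 and 0.49, all called higher, and the groups did not overlap in any of them. For H2AC11, which was near 1 TPM, the call was lost without control replicate 1 or without doxorubicin replicate 3 (adjusted p = 0.0764 and 0.0602 in limma).

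H2AC18 (ENSG00000203812, chr1:149842188-149842736) and H2AC19 (ENSG00000272196, chr1:149851061-149851624) are near-identical copies, and so are H4C14 (ENSG00000270882) and H4C15 (ENSG00000270276). The whole annotated transcript of H2AC18 (549 bases) is contained in that of H2AC19 (564 bases), and their coding sequences of 393 bases have 0 differences. The transcript of H4C14 (583 bases) is likewise contained in that of H4C15 (1132 bases), with 0 differences over 312 coding bases. Reads from such copies can be split between them in a way that the sources used here do not describe, and the split was uneven across libraries. H2AC18 took 54.3, 56.5 and 74.97% of the level of its pair in control libraries and 61.9, 47.0 and 52.0% in doxorubicin libraries.

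The summed level of each pair is given for this reason. For H4C14 and H4C15, whose transcripts differ in length, the sum can still depend on the split. H2AC18 and H2AC19 together stood at 160, 157 and 149 TPM in control libraries and at 534, 553 and 438 TPM after doxorubicin, a ratio of means of 3.27. H4C14 and H4C15 together stood at 8.97, 7.94 and 13.5 TPM and at 36.2, 35.7 and 28.6 TPM, a ratio of means of 3.30. Neither sum overlapped between the groups. As single genes, H2AC19 had a log2 fold change of 2.0 (standard error 0.30) and H2AC18 of 1.49 (standard error 0.14), with adjusted p-values of 0.00199 and 3.31e-05 in limma. H4C14 had a log2 fold change of 1.58 and H4C15 of 1.51 (standard errors 0.17 and 0.20, adjusted p-values 3.67e-05 and 0.00012 in limma). The doxorubicin over control ratio of the 20 replication-dependent genes without H2AC18 and H2AC19 was 2.51 in sum.

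**Figure D2:**
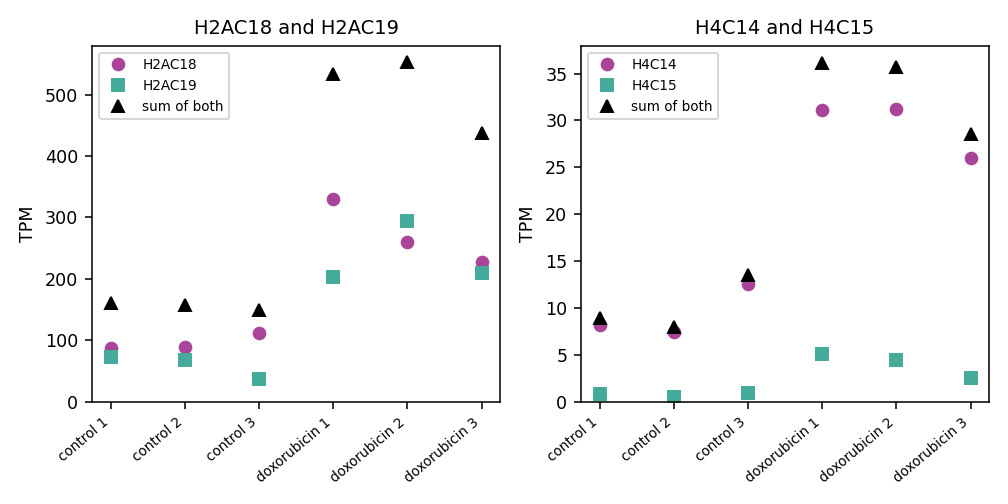
Levels in TPM of H2AC18 and H2AC19 (left) and of H4C14 and H4C15 (right) in each of the 6 libraries, with circles and squares for the genes and triangles for their sum. The share of each copy moves between libraries, most in control replicate 3 for H2AC18 at 74.97%, while both sums are higher in all doxorubicin libraries than in any control library.

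A primer pair designed for quantitative PCR of H4C14 is shown because it bears on the same copies.
forward: gaaaaggcttaggcaaagggg
reverse: ccagagatccgcttaacgc
Both primers matched every annotated transcript of H4C14 and of H4C15, with a product of 124 bases, and no transcript of another gene of GENCODE release 29. The product therefore has the same letters for both genes. The remaining listed H4 gene, H4C8 (ENSG00000158406), stood at 2.84, 7.70 and 4.74 TPM in control libraries and at 13.2, 10.2 and 7.55 TPM after doxorubicin. Its groups overlapped, its log2 fold change was 0.94 ± 0.29 (SE) with an adjusted p of 0.0156 in limma, and the call was lost without control replicate 3, doxorubicin replicate 1 or doxorubicin replicate 2, with adjusted p-values of 0.0529, 0.0517 and 0.0684.

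Among the H2B genes, H2BC12 (ENSG00000197903, chr6:27146418-27146798) had the highest level of the 22 listed replication-dependent genes. It stood at 159, 179 and 182 TPM in control libraries and at 387, 376 and 393 TPM after doxorubicin, a log2 fold change of 1.15 ± 0.06 (SE) and an adjusted p of 2.14e-07 in limma. The 3 doxorubicin libraries lay close together and well above the controls. H2BC5 (ENSG00000158373, chr6:26158146-26171349) had the largest change of the H2B genes, from 10.5, 7.76 and 11.4 TPM to 46.4, 37.9 and 34.0 TPM, with a log2 fold change of 1.90 ± 0.15 (SE) and an adjusted p of 4.94e-06 in limma. H2BC11 and H2BC8 were also called higher without overlap, with log2 fold changes of 1.07 and 0.95.

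Not every H2B gene moved in this way. H2BC21 (ENSG00000184678) stood at 14.5, 14.7 and 11.1 TPM in control libraries and at 15.97, 15.2 and 15.8 TPM after doxorubicin, and its log2 fold change of 0.22 was not called (adjusted p = 0.117 in limma). H2BC4 was called higher with overlapping groups (log2 fold change 0.41, adjusted p = 0.0154 in limma), and lost the call without control replicate 1 or doxorubicin replicate 1 (adjusted p = 0.0619 and 0.057). The pseudogene H2BC19P was not called at 0.37 (adjusted p = 0.1 in limma). H2BC9 (ENSG00000275713) fell short of the filter with 0.35, 0.47 and 0.28 TPM in control libraries and 0.14, 0.05 and 0.08 TPM after doxorubicin, so that its doxorubicin values were the lower ones. With quantile normalization and with centring, H2BC21 and H2BC19P were called higher as well, which makes 19 of 20, where 33% and 45.2% of all tested genes were called higher.

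The listed H3 genes were low. H3C10 (ENSG00000278828) stood at 1.47, 1.01 and 0.85 TPM in control libraries and at 3.46, 2.80 and 1.42 TPM after doxorubicin. Doxorubicin replicate 3 lay below the highest control library. The log2 fold change was 0.72 (adjusted p = 0.0125 in limma), and without doxorubicin replicate 1 the call was lost at an adjusted p of 0.0523. H3C6 (ENSG00000274750) stood at 0.64, 0.94 and 1.35 TPM and at 0.71, 0.84 and 3.16 TPM. Its log2 fold change of 0.27 was not called and turned to -0.14 without doxorubicin replicate 3, the library with the high value. H3-2 (ENSG00000273213), outside the classes, stood at 1.88, 1.62 and 1.66 TPM in control libraries and at 0.65, 1.04 and 1.52 TPM after doxorubicin. It was called lower at a log2 fold change of -0.41 (adjusted p = 0.0392 in limma), but not with quantile normalization or centring (adjusted p = 0.421 and 0.347), nor in 5 of the 6 fits that left out a library.

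In 15 of the 22 genes, all of them among the 20 tested, every doxorubicin library lay above every control library, as in 32.3% of all tested genes. By family, the summed level of the listed replication-dependent genes was higher after doxorubicin in each family, most in H1. The ratio of doxorubicin to control means was 4.10 for H1, 2.95 for H2A, 2.17 for H2B, 1.98 for H3 and 2.88 for H4. The H1 sum is nearly all H1-2, since H1-5 was low in control libraries and at 0 after doxorubicin. The H3 sum rests on H3C10 and H3C6, low genes whose groups overlapped. Most of the level of the 22 genes came from few of them. H2BC12, H2AC18, H2AC19, H1-2 and H2AC6 held 85.1% ± 0.610 of the class in control libraries and 87.8% ± 0.675 after doxorubicin (SD, n = 3 each).

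Some replication-dependent genes lie head to head, with their start sites facing away from each other across a short stretch of DNA. H2BC8 and H2AC8 are 282 bases apart, H2BC4 and H2AC6 218, H2BC11 and H2AC11 291, and H2AC18 and H2BC19P 138. The neighbours did not have the same ratios of doxorubicin to control means. The ratio was 2.83 for H2BC8 and 9.82 for H2AC8, and 1.35 for H2BC4 and 2.08 for H2AC6. It was 2.44 for H2BC11 and 1.84 for H2AC11, and 2.85 for H2AC18 and 1.68 for H2BC19P, the last of which was not called. The ratio of H2AC18 depends on how reads were split with H2AC19, and the ratio of their sum was 3.27. H2AC11, H2BC8 and H2BC19P had control means under 1 TPM, which makes their ratios less certain. The differences within head to head pairs were not tested.

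Promoters of H2B genes are known for the octamer ATTTGCAT, which binds the POU factor OCT1. Of the 7 H2B promoters searched, 6 had it and that of H2BC5 did not. Shown are H2BC5 and the 5 with the octamer nearest the start. The promoter of H2BC4, which was called higher, has it 123 bases before the start and is not shown. The 100 bases before the start site in RefSeq (GRCh38.p14) are written 5′ to 3′ on the gene's strand, with the octamer in capitals.
H2BC12, chr6:27146859-27146958 (-): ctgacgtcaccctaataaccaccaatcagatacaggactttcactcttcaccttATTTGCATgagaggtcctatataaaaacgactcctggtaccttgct
H2BC11, chr6:27132796-27132895 (-): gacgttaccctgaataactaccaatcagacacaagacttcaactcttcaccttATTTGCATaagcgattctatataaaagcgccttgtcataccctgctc
H2BC8, chr6:26216689-26216788 (-): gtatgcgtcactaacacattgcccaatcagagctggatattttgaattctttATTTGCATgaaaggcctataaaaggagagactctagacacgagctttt
H2BC21, chr1:149886683-149886782 (-): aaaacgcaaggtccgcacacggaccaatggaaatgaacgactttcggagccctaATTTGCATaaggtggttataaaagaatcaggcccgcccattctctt
H2BC9, chr6:26251514-26251613 (+): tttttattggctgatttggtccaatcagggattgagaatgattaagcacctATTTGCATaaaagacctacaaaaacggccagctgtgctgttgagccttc
H2BC5, chr6:26158021-26158120 (+): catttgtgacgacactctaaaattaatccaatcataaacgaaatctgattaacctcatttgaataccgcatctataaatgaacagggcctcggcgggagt
In the first 5 the octamer began 46 to 49 bases before the start. These 5 genes included H2BC12, H2BC11 and H2BC8, which were called higher, H2BC21, which was not called, and H2BC9, whose doxorubicin libraries were below its controls. H2BC5, the H2B gene with the largest change, had no octamer in its window of 250 bases before to 50 bases after the start. Its nearest copy with 1 difference began 44 bases before the start and differed by C6A, counted from 1 at the 5′ end of the octamer.

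Over this window, 35 of the 39 genes had a promoter in RefSeq. On either strand, the octamer occurred in 10 of 20 replication-dependent promoters, 0 of 4 variant promoters and 0 of 11 chaperone promoters, against 1.8% of 27305 promoters. The 10 promoters share 7 distinct sites, because 3 sites lie between head to head genes and were counted for both. CCAAT occurred in 17 of 20, 4 of 4 and 6 of 11 promoters of these classes (35.7% of all), and TATAAA in 14 of 20, 2 of 4 and 1 of 11 (12% of all). The E2F letters TTTGGCGC, TTTCCCGC or TTTCGCGC occurred in 4 of 20, 0 of 4 and 1 of 11 (2.79% of all). The letters TTTGAA, the core of the CHR element of cell cycle genes, occurred in 5 of 20, 2 of 4 and 2 of 11 (15.4% of all). The chaperone promoters with TTTGAA were those of ASF1B, 27 bases before the start, and HJURP, 111 bases before it. TTTGAA overlaps the changed octamer copy of H2BC5. These matches describe letters in a window and not bound sites.

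Of the histone variant genes, 3 of 4 were called lower and 1 higher, against 48.5% and 22.7% of all tested genes. H2AZ1 (ENSG00000164032, chr4:99948086-99950388), which encodes H2A.Z, a variant found at promoters and regulatory regions, was the most abundant listed histone gene of the control libraries. It stood at 427, 443 and 415 TPM there and at 142, 133 and 138 TPM after doxorubicin, a log2 fold change of -1.63 ± 0.06 (SE) and an adjusted p of 9.17e-09 in limma. Replicates differed little in either group, and control was 3.12 times doxorubicin. H2AZ2 (ENSG00000105968), the other H2A.Z gene, stood at 70.6, 74.4 and 71.2 TPM and at 37.2, 37.1 and 34.3 TPM, a log2 fold change of -0.97 ± 0.07 (SE) and an adjusted p of 1.93e-06 in limma.

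H2AX (ENSG00000188486, chr11:119093854-119095467) encodes the variant that is phosphorylated around DNA breaks. Its mRNA stood at 57.9, 53.9 and 44.3 TPM in control libraries and at 18.9, 20.3 and 22.2 TPM after doxorubicin, a log2 fold change of -1.30 ± 0.11 (SE) and an adjusted p of 5.75e-06 in limma. H2AX thus fell without overlap although its transcript carries the stem-loop of the replication-dependent class. The level of the mRNA says nothing of the phosphorylated protein, which was not measured here.

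H2AJ (ENSG00000246705, chr12:14774383-14778002) was the variant that rose. It encodes an H2A variant known to accumulate in senescent human fibroblasts. Its level was 152, 164 and 156 TPM in control libraries and 271, 303 and 235 TPM after doxorubicin, a log2 fold change of 0.77 ± 0.09 (SE) and an adjusted p of 4.63e-05 in limma.

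**Figure D3:**
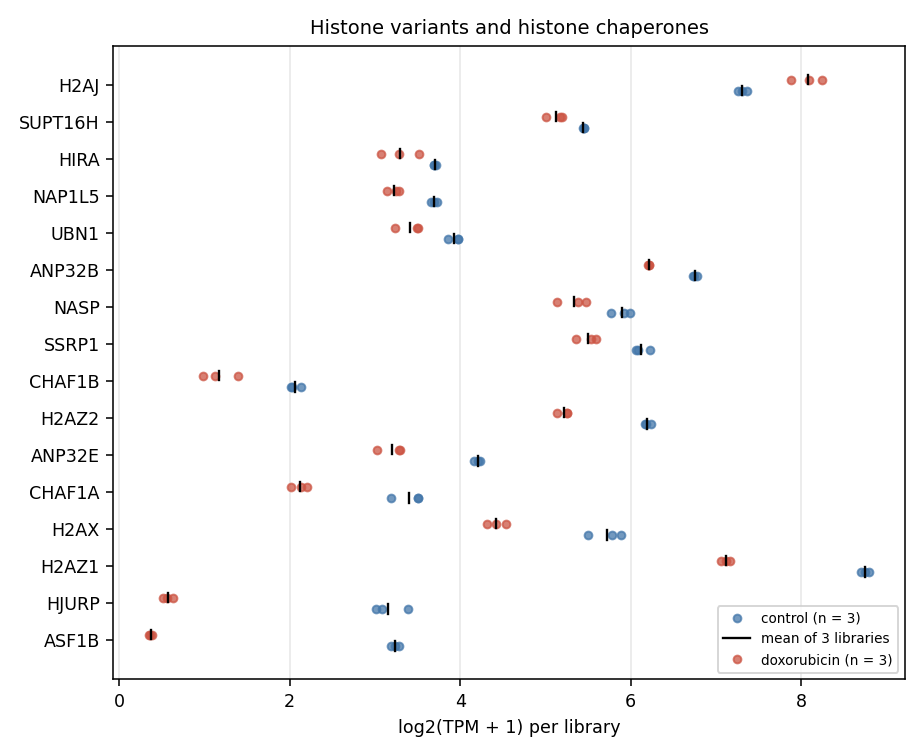
Levels of the 4 histone variant and 12 chaperone genes as log2(TPM + 1), with 1 point per library (3 control, 3 doxorubicin) and a black bar at each group's mean, ordered by fitted log2 fold change. Only H2AJ lies wholly higher after doxorubicin, and the other 15 genes lie wholly lower. Of all tested genes, 32.3% lay wholly higher and 48.4% wholly lower.

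The make-up of the summed level of the reported histone genes differed between the groups. Of the summed level of the 26 reported histone genes of both classes, the replication-dependent genes held 42.3% ± 0.858 in control libraries and 75.4% ± 0.475 after doxorubicin (SD, n = 3 each). The variants held the rest, with 710 ± 24.0 TPM in sum in control libraries and 464 ± 32.2 TPM after doxorubicin (SD, n = 3 each). H3-3A, H3-3B and the macroH2A genes are not among them, so these are shares of the reported genes only. All 26 were listed as changed between these same groups, so histone genes without a listed change are missing. Whether RNA was selected by its poly(A) tail is not given in the sources used here, and the classes can differ in this tail.

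Within the listed H2A genes the change of make-up took place at a total that moved less, and the same limits apply. The 11 listed H2A genes summed to 933, 962 and 901 TPM in control libraries and to 1162, 1180 and 1016 TPM after doxorubicin, a ratio of means of 1.2. H2AZ1 held 45.9% ± 0.169 of it in control libraries and 12.3% ± 1.15 after doxorubicin (SD, n = 3 each). H2AC18 and H2AC19 together held 16.7% ± 0.442 and 45.3% ± 2.0 (SD, n = 3 each). H2AZ1 thus was the leading listed H2A gene in every control library, and the pair of copies led in every doxorubicin library. H2AJ went from 16.9 to 24.0%, H2AC6 from 5.88 to 10.3%, H2AZ2 from 7.73 to 3.24% and H2AX from 5.57 to 1.85%, as means of 3 libraries.

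**Figure D4:**
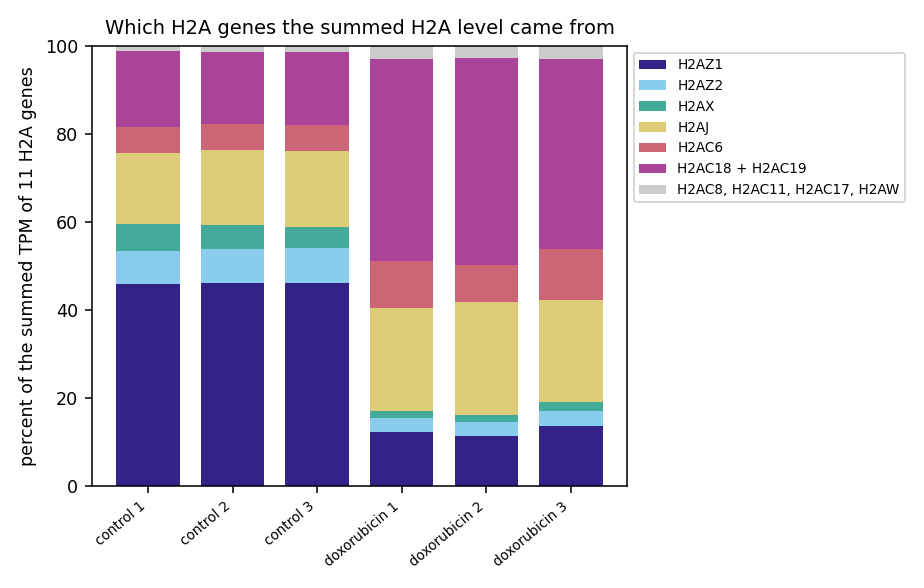
Percent of the summed TPM of the 11 listed H2A genes that came from each gene, as 1 stacked bar per library (3 control, 3 doxorubicin). H2AZ1 takes 45.7 to 46.03% of each control bar and 11.2 to 13.5% of each doxorubicin bar, and H2AC18 with H2AC19 takes 16.3 to 17.1% and 43.1 to 46.9%.

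The listed histone chaperone genes were lower after doxorubicin. All 12 listed were called lower on the deposited scale (limma), where 48.5% of all tested genes were, and in all 12 every doxorubicin library lay below every control library, as in 48.4% of all tested genes. Their log2 fold changes ran from -2.86 to -0.32 with a median of -0.59, which is 0.31 below the median of all genes. The count depended on scaling, with 9 called lower after quantile normalization, when 28.7% of all genes were, and 8 after centring, when 30.3% were. HIRA, NAP1L5 and SUPT16H were not called under either scaling, and UBN1 was not called after centring.

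ASF1B and HJURP had the largest changes of the 12. ASF1B (ENSG00000105011, chr19:14119509-14136956) encodes a protein that hands new H3 and H4 to the assembly factor CAF-1. It stood at 8.10, 8.42 and 8.71 TPM in control libraries and at 0.31, 0.28 and 0.29 TPM after doxorubicin, so that control was 28.7 times doxorubicin. The log2 fold change was -2.86 ± 0.12 (SE) with an adjusted p of 2.6e-08 in limma, and the low doxorubicin level makes this fitted value smaller than the ratio. HJURP (ENSG00000123485, chr2:233833416-233854566), which places the centromeric histone CENP-A, stood at 7.46, 9.46 and 7.05 TPM and at 0.55, 0.43 and 0.48 TPM, with control 16.4 times doxorubicin and a log2 fold change of -2.59 ± 0.14 (SE) and an adjusted p of 1.65e-07 in limma. Both genes were thus under 1 TPM in every doxorubicin library.

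CHAF1A (ENSG00000167670) and CHAF1B (ENSG00000159259) encode subunits of CAF-1, which assembles nucleosomes behind the replication fork. CHAF1A stood at 8.14, 10.4 and 10.4 TPM in control libraries and at 3.40, 3.03 and 3.62 TPM after doxorubicin, a log2 fold change of -1.28 ± 0.13 (SE) and an adjusted p of 2.41e-05 in limma. CHAF1B stood at 3.08, 3.40 and 3.04 TPM and at 1.19, 1.64 and 0.98 TPM, a log2 fold change of -0.89 ± 0.14 (SE) and an adjusted p of 0.000379 in limma. By the ratio of means these subunits were close, with control 2.88 and 2.50 times doxorubicin. NASP (ENSG00000132780), which binds H3 and H4 not yet in chromatin, changed less, from 59.4, 62.4 and 53.6 TPM to 40.7, 34.2 and 43.6 TPM (log2 fold change -0.56, adjusted p = 0.000733 in limma).

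SSRP1 (ENSG00000149136) and SUPT16H (ENSG00000092201) encode the subunits of FACT, which loosens and rebuilds nucleosomes during transcription and replication. SSRP1 stood at 66.9, 73.6 and 66.0 TPM in control libraries and at 45.5, 39.9 and 47.2 TPM after doxorubicin (log2 fold change -0.63, standard error 0.08, adjusted p = 0.000129 in limma). SUPT16H had a log2 fold change of -0.32, the smallest of the 12, which was -0.06 after centring (adjusted p = 0.405). HIRA and UBN1, of the complex that deposits H3.3, had log2 fold changes of -0.41 and -0.52, and of -0.15 and -0.26 after centring.

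The ANP32 and NAP1L genes made up the rest. ANP32E (ENSG00000143401), which encodes a protein that takes H2A.Z off chromatin, stood at 17.5, 16.9 and 17.9 TPM in control libraries and at 8.70, 7.11 and 8.79 TPM after doxorubicin, a log2 fold change of -1.01 ± 0.11 (SE) and an adjusted p of 4.1e-05 in limma. It thus fell beside both H2A.Z genes. ANP32B (ENSG00000136938), the most abundant chaperone gene listed, stood at 105, 106 and 109 TPM and at 73.5, 72.9 and 72.8 TPM (log2 fold change -0.54, adjusted p = 3.52e-05 in limma). NAP1L5, of the nucleosome assembly protein family, had a log2 fold change of -0.47.

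**Figure D5:**
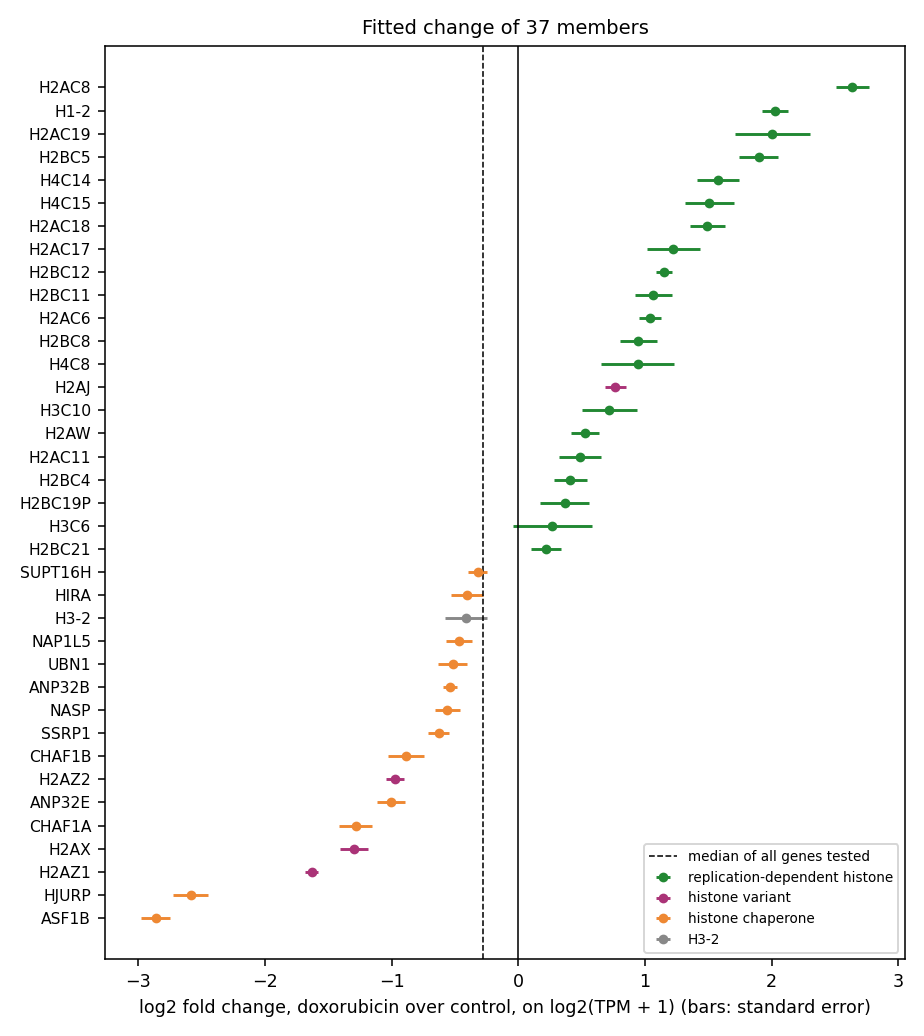
Fitted log2 fold change, doxorubicin over control on log2(TPM + 1), of the 37 genes past the filter, with bars for the standard error and colours for the classes. The dashed line is the median of all 5721 tested genes at -0.28. The 20 replication-dependent genes lie between 0.22 and 2.64, the 12 chaperones between -2.86 and -0.32, and the variants on both sides.

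The same fit was read for the genes that make and process histone mRNA and for further chaperones, from lists chosen by function. Of 17 genes for synthesis and processing, 10 were listed and 9 tested, of which 7 were called lower and 0 higher in limma (0 higher also at an unadjusted p under 0.05), where 48.5% of all tested genes were called lower. Quantile normalization left 3 of the 9 lower and 1 higher, close to the 28.7% of all genes that were then called lower. The transcription factor gene E2F1 had a log2 fold change of -1.68, cyclin E2 (CCNE2) of -1.14 and its kinase partner CDK2 of -0.85, and these 3 remained called after quantile normalization. ERI1, an exonuclease of the histone mRNA end, was at -0.67 and CASP8AP2, also called FLASH, at -0.44. HINFP, a transcription factor of H4 genes, and LSM10, a part of the U7 particle that processes the mRNA end, were not called at 0.16 and 0.15 and were called higher after centring, at 0.42 and 0.41.

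Of 18 further genes of chaperones and their partners, 10 were listed and tested, and 10 were called lower in limma, against 48.5% of all tested genes. After centring 6 were called lower, against 30.3%. CENPA, the histone that HJURP carries, stood at 7.60, 6.27 and 6.73 TPM in control libraries and at 1.18, 1.88 and 0.85 TPM after doxorubicin, a log2 fold change of -1.79 ± 0.17 (SE) and an adjusted p of 1.24e-05 in limma. MCM2, a helicase subunit that also binds H3 and H4, had a log2 fold change of -1.63, DEK of -1.08 and ATRX, which deposits H3.3 with DAXX, of -0.65. The groups of CENPA did not overlap, as for HJURP.

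The tissue label was checked on markers. Of 10 fibroblast markers 5 were listed, with a summed level of 10287 to 10609 TPM in control and 9409 to 11485 TPM in doxorubicin libraries, and COL1A1 was at 1734 TPM or more in every library. FN1 was called higher and the other 4 lower. Of 3 leukocyte markers PTPRC and CD68 were listed, at 45.02 to 48.97 TPM in sum in control and 87.4 to 93.7 TPM in doxorubicin libraries, nearly all of it CD68, while PTPRC, the defining marker, was at most 0.62 TPM. Of 4 epithelial markers KRT18 and KRT19 were listed, at 128 to 140 TPM and 274 to 295 TPM. EPCAM, CDH1 and the 3 endothelial markers were not analysed here. CD68, KRT18 and KRT19 were higher after doxorubicin, as were most of the listed replication-dependent histone genes, and their part in those changes was not tested.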

How the data were processed

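RNA of 6 WI-38 libraries was analysed. The authors' deposited table gives 1 value per gene and library without naming its unit. It was taken as TPM, because RSEM is among the tools in the submitters' processing notes and each library's values sum to less than the full total of that unit. If it were FPKM, a constant per library would differ. Median centring covers this in part only, since the filter and the added 1 act before it and matter for low genes. The notes also name CASAVA, HISAT2, StringTie, DESeq2 and edgeR, without versions or roles, and the mouse build GRCm38, although all gene identifiers are human. Filters and strand of counting are not given in the sources used here. The study states thresholds of a fold change over 1.2 and p under 0.05 for selecting genes. The listed genes were taken to have passed them on the authors' own values. The authors' group means, fold changes, p-values and calls, which hold their own comparison, were not used.

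Genes were chosen by symbol and assigned to classes by standard nomenclature. A listed gene that matched is not reported here. The members, classes and lists were chosen with earlier results of these data known. The log2(TPM + 1) values of genes averaging 1 TPM or more were kept, and limma 3.58.1 (R 4.3.3, eBayes with trend and robust) was fitted with a mean per group to the 3 control and 3 doxorubicin libraries, with Benjamini-Hochberg adjustment over the 5721 genes. The fit was tested on simulated data. For a single gene the exact permutation test of 3 against 3 libraries cannot give a p below 0.1. Per-library values were given for the members of each class with up to 6 of the largest called rises and falls without overlap, the 3 highest levels, and members not called, and for some others after their values were seen. Positions and transcripts came from GENCODE release 29 (GRCh38), by Ensembl identifier, and promoters from RefSeq (GRCh38.p14). Python 3.11.15 and pandas 2.3.3 were used. Alternatives were quantile normalization, median centring, a pseudocount of 0.1, other filters and thresholds, a replicate block and leaving out each library.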

Additional observations from a re-analysis of the deposited data

How the results depend on the processing

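The median log2 fold change of the tested replication-dependent genes, 1.05 on the deposited scale, was 1.28 after quantile normalization, 1.31 after median centring, 1.21 with a pseudocount of 0.1 and 1.15 with a minimum mean of 5 TPM. Without a filter 2 replication-dependent genes, H1-5 and H2BC9, were called lower. Median centring gave a variant median of -0.88, a chaperone median of -0.34 and 6 of the further chaperone genes called lower. The log2 ratio of the summed chaperone level was -0.57 after quantile normalization. In the list of histone mRNA synthesis and processing, the number called higher was 1 after quantile normalization, 2 after centring and 0 to 1 with a library left out, and the number called lower was 3 after quantile normalization and 3 with a minimum of 5 TPM. Among the members and the settings run, only H3C6 changed sign. Its log2 fold change ran from -0.14 to 0.50 with a library left out, the lowest without doxorubicin replicate 3, and it was called in none of these fits. The cause of these shifts was not tested, except that the minimum of 5 TPM tests fewer genes. All listed genes were chosen on these libraries, so none of the settings tests that choice, and without read counts the limit set by depth is unknown.

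Control and doxorubicin libraries share replicate numbers, but same-numbered libraries did not deviate together across genes (r of -0.06, -0.19 and -0.23), so the numbers were not taken as pairs. With the replicate number as a block 1222 genes were called higher and 2670 lower, and of the 37 tested members 18 were called higher and 15 lower. The block ended the call of H3-2 (adjusted p = 0.0505 in limma) and no other call among the members.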
